A study of Mus musculus with 4 samples.

Results

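The constitutive proteasome is described here in 2 mouse cell populations that lie along the path from embryonic stem (ES) cells to blood. Its members were chosen by name alone, as the probe sets with a single gene symbol that starts with Psma to Psmg and a number, without the immunoproteasome subunits Psmb8, Psmb9 and Psmb10. The rule took in 55 of 12422 tested probe sets and 43 of 8251 genes. Of these symbols, Psmc3ip, a partner of meiotic recombinases, and Psme3ip1, which binds a proteasome activator, name interacting proteins and no subunits. The remaining 41 genes, measured by 53 probe sets, are the proteasome genes counted below, and 8 of them have more than 1 probe set. A gene with several is represented by the one with the highest mean log2 value over the 4 arrays. Psma8, Psmb11 and the inhibitor gene Psmf1 are not analysed here, and neither is the activator gene Psme2, because 2 probe sets carry its symbol beside that of Psme2b.

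RNA was hybridised to 4 single-colour arrays, 2 titled Hemangioblast and 2 titled hCD4, and no batch is named in the labels. All cells derive from a single ES line, Scl+/hCD4, in which human CD4 reports Scl (the gene also called Tal1), so both groups share this genotype. The ES cells were kept with LIF on inactivated STO feeder cells, and differentiation ran for 2.75 days in medium with FCS. Cells with surface Flk-1 (Kdr) and human CD4 were sorted as hemangioblasts, and blast colonies grown from replated embryoid body cells were pooled. The labels disagree on which arrays hold which cells. Titles give Hemangioblast and hCD4, the source of the hCD4 arrays is given as ES cells in culture, and the design text names populations hCD4 and Blast. The groups are therefore named by title, and every change is Hemangioblast minus hCD4. Whether a group's 2 arrays stem from independent cultures is not stated, so the p-values reflect array-to-array spread that may be technical.

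The proteasome is the barrel-shaped protease that degrades proteins tagged with ubiquitin. Its core particle stacks outer rings of alpha subunits on inner rings of beta subunits, and Psmb5, Psmb6 and Psmb7 encode the beta subunits with proteolytic sites. The regulatory particle caps the core. Its base holds a ring of ATPases (Psmc genes) that unfold substrates and pull them in, and its lid removes the ubiquitin chains. Other factors help assemble the particles, and the activators encoded by Psme genes can cap the core in place of the regulatory particle. In the immunoproteasome, subunits that interferon can induce take the place of the catalytic ones.

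The titles were checked against markers of the cell types the samples could hold, and the markers go against them. Kdr, which was used in the sort, was at 648 and 570 in Hemangioblast against 1625 and 2003 in hCD4, and Etv2, a hemangioblast factor, at 19.0 and 36.4 against 443 and 422. Of 6 macrophage and myeloid markers 5 were higher on the Hemangioblast arrays (adjusted p under 0.05 in the limma fit described below), with a summed scaled intensity of 4842 and 5404 against 400 and 345. All 4 measured erythroid markers were higher (25345 and 25546 against 6132 and 6490). Of 5 hemangioblast markers 3 were lower (2847 and 3045 against 5461 and 6608), and of 5 ES cell markers 1 was lower (3728 and 3956 against 5220 and 4495). Most of the ES cell sum was Esrrb, which overlapped (3343 and 3476 against 3165 and 3579). The lower marker was Pou5f1, at 104 and 144 against 1526 and 585, though its dim second probe set was higher (log2 change 0.94, adjusted p = 0.293). A second Nanog probe set was lower and did not pass (-1.49, adjusted p = 0.137). Other passing markers also had further, dim probe sets that did not pass. Their log2 changes were 0.74 for Gata2, 0.15 for Adgre1, 0.26 for Csf1r, -0.52 and 1.47 for Ptprc, and 0.43 and 0.66 for Col3a1. The further probe set of Hbb-y passed (2.05). Of 5 fibroblast markers 1 was higher (1697 and 2118 against 1591 and 1230), and of 3 endothelial markers none passed (1012 and 784 against 1000 and 1148). A sum of intensities cannot show whether a cell type was present. On the hCD4 arrays the means of the 6 macrophage and myeloid markers ran from 8.64 (Adgre1) to 170 (Cd68). The marker differences accompany every comparison below, and their part in the proteasome values was not tested. In such bulk RNA, fewer cells of a type and less RNA per cell cannot be told apart.

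Proteasome genes differed little between the populations, in values scaled to a common mean per array. None of the 41 passed an adjusted p of 0.05 in either direction (limma, Benjamini-Hochberg over all probe sets), while 5.36% of all genes did, 3.39% higher and 1.96% lower. None of the 53 probe sets passed either. At an unadjusted p under 0.05 there were 7 proteasome genes, which is 17.1% against 18.2% of all genes. All 41 changes were smaller than 1.5-fold, and so were those of 82.7% of all genes. In all 4 comparisons of one array with another, 0 proteasome genes differed by 1.5-fold or more in a constant direction, as 7.65% of all genes did.

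A missed threshold does not show equality, so each change is given with its 95% interval from the fit, not adjusted for the number of genes. The interval lay inside a 2-fold change in both directions for 39 of 41 genes, against 65.2% of all genes. The 2 exceptions, Psmc4 and Psmd2, were dim on every array. The interval reached a median of 0.39 to each side on the log2 scale, so changes smaller than that could be present in most members. All 39 proteasome genes with a mean scaled intensity of 100 or more had an interval inside 2-fold, against 76.3% of the 6260 genes above that floor. The floor does not match the sets for brightness, on which the fitted spread depends. Their median SE was 0.17 for the proteasome genes and 0.21 for the 6260.

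**Figure D1:**
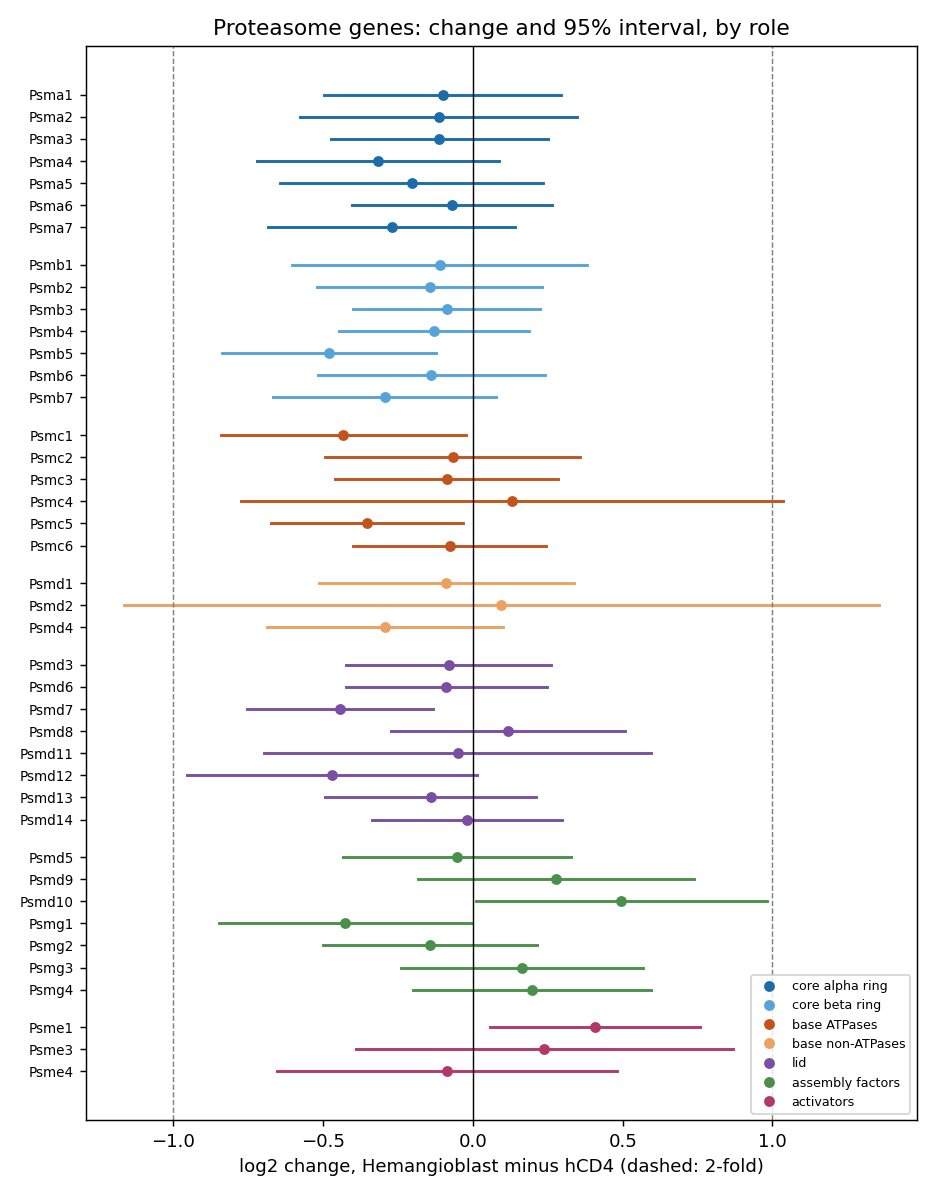
Log2 change (Hemangioblast minus hCD4, horizontal axis) of the 41 proteasome genes, with points for the estimate, bars for the 95% interval (2 arrays a group) and colours for the role. Apart from those of Psmc4 and Psmd2, every bar lies between the dashed lines of a 2-fold change, and most points lie slightly below 0.

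The small changes leaned to one side. Estimates were below 0 for 32 of 41 proteasome genes, against 47.4% of all genes, and their median log2 change was -0.09 against 0.02 for all genes. For 17 of the 41 the groups were separate, with every array of one above every array of the other. Hemangioblast was lower for 13 (31.7%) and higher for 4 (9.76%), while 22.0% of all genes were lower and 24.5% higher without overlap. Subunits of the core and regulatory particles, which are 31 of the 41 genes, made up 11 of the 13 and 0 of the 4. The 4 higher genes were the activator Psme1 and the assembly factors Psmd10, Psmg3 and Psmg4.

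**Figure D2:**
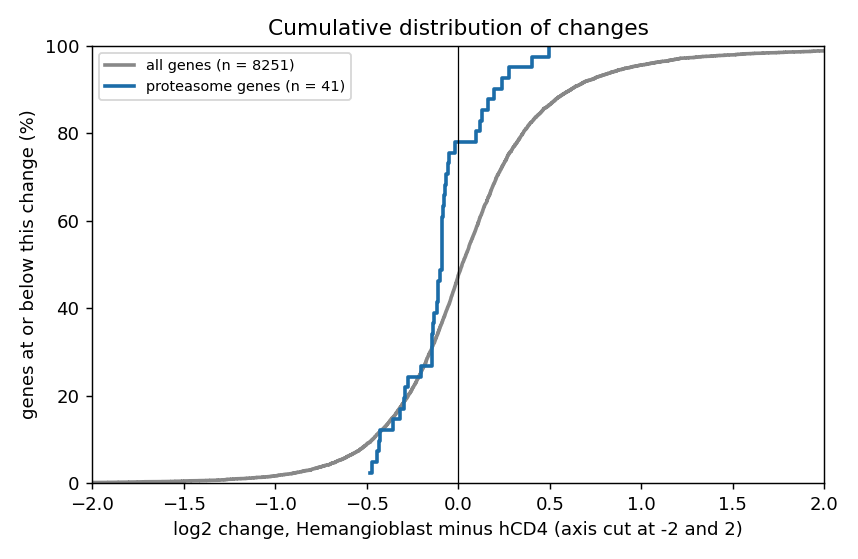
Cumulative share of genes (vertical axis, %) at or below each log2 change (horizontal axis) for the 41 proteasome genes and all 8251 genes. The proteasome curve is steeper, and it spans -0.48 to 0.50 where all genes span -4.81 to 5.44, beyond the plotted range. A range widens with the number of genes, and the sets are not matched for brightness.

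The median and the count below 0 depended on 1 array. Hemangioblast replicate 2 had the lowest value of the 4 arrays for 21 of 41 proteasome genes, and their median deviation from the gene's mean there was -0.20 on the log2 scale. On the other 3 arrays it was 0.05, 0.04 and 0.07. Without Hemangioblast replicate 2 the median log2 change of the 41 genes was -0.0097 and 21 were below 0. That setting turned the sign of 11 of the 41: Psma1, Psma2, Psma3, Psma5, Psmb1, Psmb2, Psmb6, Psmc3, Psmd1, Psmd5 and Psmd11. Without Hemangioblast replicate 1 the median was -0.27 and 34 were below 0. Of the 13 genes that were lower without overlap, 6 had their lowest value on Hemangioblast replicate 2 and 7 on replicate 1. With quantile normalization the median was -0.04, against -0.03 for all genes, and 30 of 41 genes were still below 0. No proteasome gene passed the threshold under any of these settings.

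In the median over the 41 genes, the 2 Hemangioblast arrays thus differed more than the groups did. This did not hold for each gene, and Psmd7 and Psmc1 were among the exceptions. A difference between single arrays also spreads more than one between group means. The median log2 difference of replicate 1 minus replicate 2 was 0.23 over the 41 genes and -0.04 over all genes. For the 14 core particle genes it was 0.30. Between the hCD4 arrays it was 0.0015 over the 41 genes. Hemangioblast replicate 1 also had the highest 3' to 5' ratio of the Gapdh probe sets, which rises as RNA degrades, at 1.33 against 1.03 for replicate 2, and 1.13 and 1.03 for the hCD4 arrays. Its part in the difference was not tested.

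**Figure D3:**
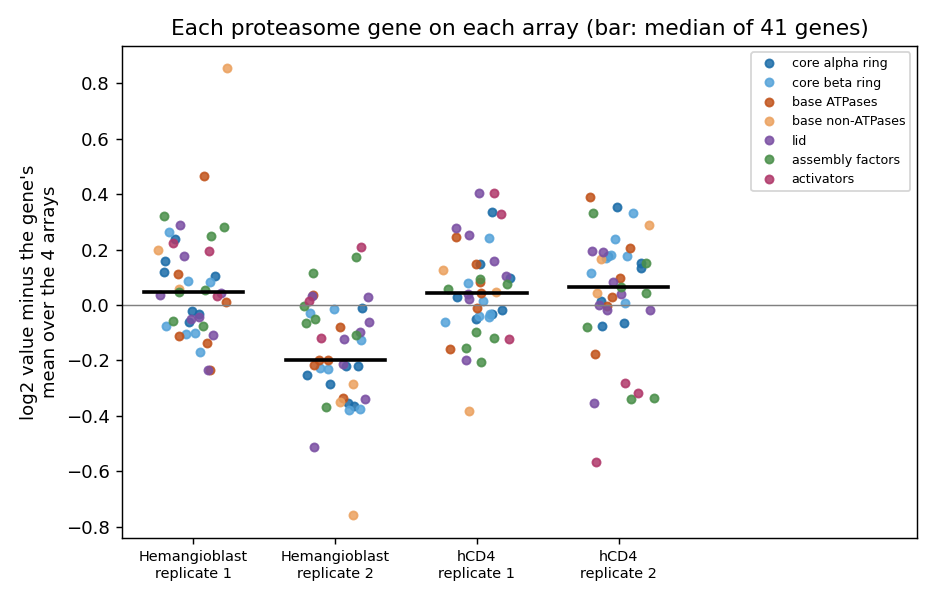
Log2 value of each proteasome gene minus its own mean over the 4 arrays (vertical axis), by array (horizontal axis), coloured by role, with black bars for the median of the 41 genes. The bar of Hemangioblast replicate 2 is at -0.20, while the bars of the other arrays are between 0.04 and 0.07.

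The alpha ring, which forms the gate of the core, showed no separation between groups. All 7 measured genes had estimates below 0 and overlapping groups, with a median log2 change of -0.11. Of all genes, 22.0% were lower and 24.5% higher without overlap. The lowest was Psma4, at 2261 and 1895 in Hemangioblast against 2259 and 2956 in hCD4, in scaled intensity. Replicate 1 of both groups had nearly one value, and the other hCD4 array alone was higher (log2 change -0.32, SE 0.18, adjusted p = 0.452). The highest was Psma6, at 2179 and 2256 against 2516 and 2153, with 1 hCD4 array below both Hemangioblast arrays (-0.07, SE 0.15, adjusted p = 0.895). Psma6 had a positive estimate with quantile normalization (0.027) and without hCD4 replicate 1 (0.042).

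The other alpha genes lay between these. Log2 changes were -0.10 for Psma1, -0.11 for Psma2 and Psma3, -0.20 for Psma5 and -0.27 for Psma7, with adjusted p-values from 0.547 to 0.870. Psma2 had its highest and its lowest value within the Hemangioblast group, at 3697 and 2449, around 3092 and 3435 for hCD4. Psma5 did not follow that order, since its highest array was hCD4 (2101 and 1458 against 1917 and 2129). In both genes Hemangioblast replicate 2 was the lowest of the 4 arrays. The median of the alpha ring turned positive without that array (0.05) and was -0.39 without the other Hemangioblast array. It was -0.0225 with quantile normalization.

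In the beta ring, where proteins are cut, all 7 measured genes again had estimates below 0, with a median of -0.14. For 4 of them Hemangioblast was lower without overlap, beside 22.0% of all genes. The largest change was that of Psmb5, which encodes the subunit with chymotrypsin-like activity. It was at 1243 and 1023 in Hemangioblast against 1583 and 1580 in hCD4. Both hCD4 arrays were above both Hemangioblast arrays, and their own difference was small (log2 change -0.48, SE 0.16, 95% interval -0.84 to -0.12, adjusted p = 0.152). A second, dimmer probe set of Psmb5 was at 265 and 317 against 326 and 299, with overlapping groups and a log2 change of -0.10 (adjusted p = 0.890).

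The other catalytic subunits changed less. Psmb6, with caspase-like activity, was at 2278 and 1827 against 2080 and 2431. The groups overlapped, and the hCD4 arrays lay apart by nearly as much as the Hemangioblast arrays did (-0.14, SE 0.17, adjusted p = 0.783). Without Hemangioblast replicate 2 its estimate was 0.019. Psmb7, with trypsin-like activity, was at 2867 and 2960 against 3142 and 4071. Its groups did not overlap, and hCD4 replicate 2 stood above the other 3 arrays (-0.29, SE 0.16, adjusted p = 0.448).

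Beta subunits without proteolytic sites changed by -0.09 to -0.14. Psmb3 was at 2325 and 2428 against 2592 and 2461, a narrow gap without overlap (-0.09, SE 0.14, adjusted p = 0.847), and its estimate was 0.019 with quantile normalization. Psmb4 was at 2068 and 2180 against 2246 and 2410, also without overlap (-0.13, adjusted p = 0.748). The dimmest probe set of Psmb4 was higher without overlap (0.15, adjusted p = 0.847). Psmb1 and Psmb2 overlapped, with log2 changes of -0.11 and -0.14. Of the 2 further probe sets of Psmb1 the bright one changed by -0.05 and the dim one by 0.22, and neither passed.

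Promoters of proteasome genes are known targets of the factor Nfe2l1, which binds antioxidant response elements, and of the CCAAT-binding factor NF-Y. In windows of 300 bases around annotated starts (250 before and 50 after), from RefSeq on GRCm38.p6, 34 of the 41 genes were found, with 36 windows. The motif TGACNNNGC, the core of the antioxidant response element, was searched on both strands and was in 6 of 36 windows (16.7%) and in 12.4% of all 32851 windows. CCAAT, on either strand, was in 12 of 36 (33.3%) and in 37.4% of all. In 0 windows of these genes did the motifs share bases. Both shares were close to those of all windows. The 6 genes with TGACNNNGC, with log2 changes in brackets, were Psmb5 (-0.48), Psmd12 (-0.47), Psmb6 (-0.14), Psme4 (-0.09), Psmc6 (-0.08) and Psmd9 (0.28). All 41 proteasome genes spanned -0.48 to 0.50. A match is a description and shows no binding.

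Printed here are stretches before the annotated start of Psmb5, Psmb6 and Psmd9, because their match reads in the direction of the gene and begins within 50 bases of its start. They run 5′ to 3′ on the gene's strand, and capitals mark the match to TGACNNNGC. That of Psmb5 is at chr14:54618019-54618057 on the minus strand, with the match from 47 bases before the start. That of Psmb6 is at chr11:70525333-70525356 on the plus strand (9 bases before), and that of Psmd9 at chr5:123228144-123228182 on the plus strand (31 bases before).
Psmb5: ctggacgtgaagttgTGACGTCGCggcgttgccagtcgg
Psmb6: gcggactaaagagagTGACGGAGC
Psmd9: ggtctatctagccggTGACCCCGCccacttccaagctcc
The position of the match was the reason for printing these genes and is no result about them. Their log2 changes were -0.48 (Psmb5), -0.14 (Psmb6) and 0.28 (Psmd9).

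Among the 6 ATPases of the base, which unfold substrates, 2 were lower on the Hemangioblast arrays without overlap, beside 22.0% of all genes. Psmc1 was at 580 and 595 in Hemangioblast against 706 and 904 in hCD4. The Hemangioblast arrays nearly coincided, and most of the spread was between the hCD4 arrays (-0.43, SE 0.18, 95% interval -0.84 to -0.02, adjusted p = 0.273). Psmc5 was at 1376 and 1303 against 1680 and 1752, with tight values in both groups (-0.35, SE 0.14, 95% interval -0.68 to -0.03, adjusted p = 0.252). Its second probe set was dim but gave a similar estimate, -0.31, without overlap (adjusted p = 0.686).

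The other ATPase genes overlapped. Log2 changes were -0.07 for Psmc2, -0.09 for Psmc3 and -0.08 for Psmc6, with adjusted p-values of 0.928, 0.877 and 0.873, and Psmc6 turned positive with quantile normalization. The 3 probe sets of Psmc3 gave -0.09, -0.10 and -0.14, all with overlap. Psmc4 read only 40.2 and 16.3 against 20.5 and 25.5, close to the constant of 16 that is added before the log2, so its change of 0.13 is not informative (95% interval -0.77 to 1.03). It turned negative with quantile normalization (-0.07) and without Hemangioblast replicate 1 (-0.27).

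Of the base subunits without ATPase activity, Psmd4 encodes a receptor for ubiquitin chains. It was at 1512 and 1136 against 1586 and 1633. The groups did not overlap, but Hemangioblast replicate 1 came close to the hCD4 arrays (-0.29, SE 0.17, adjusted p = 0.485). Psmd1, a scaffold of the base, was at 1411 and 1005 against 1270 and 1265, so the hCD4 arrays lay between the Hemangioblast arrays (-0.09, SE 0.18, adjusted p = 0.895). Its estimate was 0.15 without Hemangioblast replicate 2. Psmd2, the other scaffold, read 40.2 and 2.38 against 7.84 and 22.0, too dim to give a direction. Its log2 change of 0.10 had an interval of -1.16 to 1.36, and it was -0.27 with an added constant of 1.

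The lid held the gene with the smallest adjusted p, Psmd7, a structural partner of the deubiquitinase of the lid. It was at 1892 and 1923 in Hemangioblast against 2654 and 2551 in hCD4. Each group was tight and the groups lay well apart (-0.44, SE 0.14, 95% interval -0.76 to -0.13, adjusted p = 0.127). The adjusted p of Psmd7 was 0.0788 with dim probe sets left out and 0.201 with median scaling. It was at least 0.407 without scaling and at least 0.369 without an intensity trend, where other proteasome genes had the smallest values. Psmd12 was at 646 and 435 against 763 and 719, with the lowest estimate of the lid. The groups did not overlap, and Hemangioblast replicate 2 stood below the other 3 arrays (-0.47, SE 0.21, 95% interval -0.95 to 0.01, adjusted p = 0.325). Without that array the estimate was -0.19.

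Psmd14 encodes the deubiquitinase itself. It was at 1649 and 1748 against 1734 and 1708, with overlapping groups (-0.02, SE 0.14, 95% interval -0.34 to 0.30, adjusted p = 0.979). This estimate turned positive under quantile normalization, on unscaled values and when Hemangioblast replicate 1 was left out. Psmd8 was the only lid gene with a positive estimate, at 1240 and 1048 against 951 and 1159, with overlap (0.12, SE 0.17, adjusted p = 0.835). That estimate was -0.0027 without Hemangioblast replicate 1 and -0.02 without hCD4 replicate 1. Psmd3, Psmd6 and Psmd13 had log2 changes of -0.08, -0.09 and -0.14. The probe sets of Psmd11 disagreed. The brightest was at 1686 and 1085 against 1829 and 1074, with replicate 1 high in both groups (-0.05, adjusted p = 0.969). Another was at 613 and 616 against 757 and 761, lower without overlap (-0.30, adjusted p = 0.418), and the dimmest was higher without overlap (0.48, adjusted p = 0.526).

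Assembly factors ranged from -0.43 to 0.50, with 4 of 7 estimates above 0 and a median of 0.16. Psmd10, also known as gankyrin, helps to build the base and was first described as an oncoprotein. It was at 349 and 314 in Hemangioblast against 246 and 215 in hCD4. All Hemangioblast values were higher, and this was the largest positive change of the 41 (0.50, SE 0.21, 95% interval 0.01 to 0.98, adjusted p = 0.295). Psmg1, part of a chaperone pair that starts the alpha ring, was at 666 and 535 against 742 and 880. It was lower without overlap (-0.43, SE 0.18, 95% interval -0.85 to -0.01, adjusted p = 0.295).

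Psmg2, the partner of Psmg1, was at 648 and 653 against 722 and 717, a small gap between tight groups (-0.14, SE 0.16, adjusted p = 0.759). Psmg3 and Psmg4, which form another chaperone pair for the alpha ring, went the other way. Psmg3 was at 571 and 599 against 476 and 569 (0.16, adjusted p = 0.754) and Psmg4 at 788 and 637 against 607 and 624 (0.20, adjusted p = 0.684), both higher without overlap. The second probe set of Psmg3 overlapped (-0.04, adjusted p = 0.969). The base chaperones Psmd5 and Psmd9 overlapped, with log2 changes of -0.05 and 0.28. Without 1 array at a time the median of the assembly factors was between 0.04 and 0.13.

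Psme1 encodes the alpha subunit of the activator PA28, which interferon induces. It was at 1036 and 1047 in Hemangioblast against 827 and 739 in hCD4. The Hemangioblast arrays nearly coincided above both others (0.41, SE 0.15, 95% interval 0.06 to 0.76, adjusted p = 0.224). A dim second probe set of Psme1 went the other way, at 41.1 and 29.1 against 48.2 and 63.3 (-0.49, adjusted p = 0.581), and the mean of both probe sets changed by -0.0427. That value then was also the median of the activators, which was 0.24 with the brightest probe set of each gene.

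The nuclear activators did not separate the groups. Psme3 was at 912 and 788 against 983 and 521. The hCD4 arrays alone spanned more than both Hemangioblast arrays (0.24, SE 0.27, adjusted p = 0.774), and the estimate was -0.21 without hCD4 replicate 2. Psme4 showed a like pattern, at 516 and 463 against 673 and 402 (-0.09, SE 0.25, adjusted p = 0.932), with an estimate of 0.27 without hCD4 replicate 1.

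**Figure D4:**
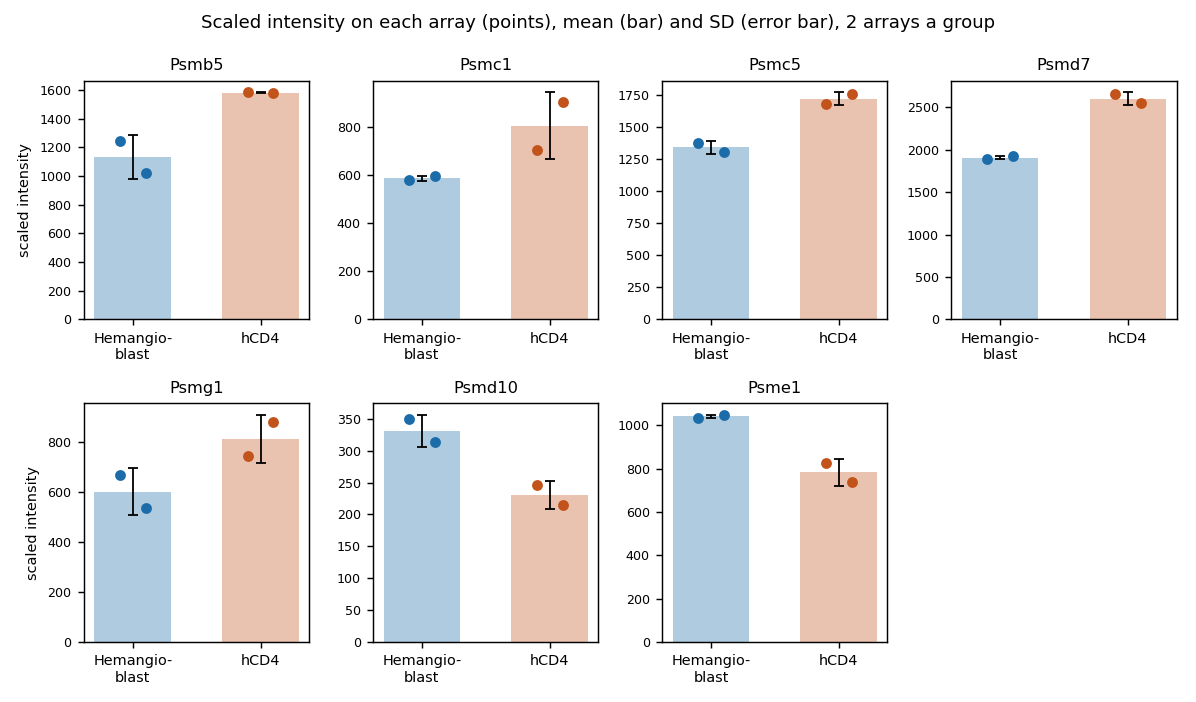
Scaled intensity (vertical axes, starting at 0) of the 7 proteasome genes with an unadjusted p under 0.05, with points for arrays, bars for the mean of 2 arrays and error bars for the SD. Psmb5, Psmc1, Psmc5, Psmd7 and Psmg1 are lower and Psmd10 and Psme1 higher on the Hemangioblast arrays, without overlap, and 0 of them passed the adjusted threshold.

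The 3 inducible core subunits, which replace the catalytic ones in the immunoproteasome, did not pass either. Psmb8 was at 315 and 376 against 380 and 198, with overlap (0.31, adjusted p = 0.721). Psmb9 was dim, at 72.4 and 108 against 57.9 and 66.2, higher without overlap (0.42, adjusted p = 0.637). Psmb10 was at 1162 and 955 against 1162 and 1053 (-0.07, adjusted p = 0.910). The 95% intervals of all 3 included 0.

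The rest of the ubiquitin pathway gave 0 passing genes in 5 further lists. Of 21 measured E2 enzymes, which carry ubiquitin to its targets, 10 had estimates above 0 and 11 below, with a median of -0.03. Among 5 further proteasome parts and partners (Ecpas, Pomp, Sem1, Uchl5 and Usp14) the median was -0.05. Of 5 shuttles and segregase genes, which bring substrates to the proteasome, 4 were below 0 (median -0.20). The lowest was Ubqln1, a shuttle for ubiquitin chains, at 873 and 1081 against 1456 and 1336, lower without overlap (-0.52, SE 0.16, adjusted p = 0.143).

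Of 9 regulators of proteasome genes 8 had estimates below 0 (median -0.15). The exception was Keap1, the adaptor that sends Nfe2l2 to degradation, with the largest change of the list. It was dim, at 71.8 and 83.8 in Hemangioblast against 31.4 and 42.6 in hCD4, and higher without overlap (0.83, SE 0.33, 95% interval 0.06 to 1.59, adjusted p = 0.263). Nfe2l1, the factor that raises proteasome genes when degradation is blocked, was at 530 and 584 against 833 and 809. Both groups were tight and did not overlap (-0.55, SE 0.16, 95% interval -0.91 to -0.18, adjusted p = 0.112). Its second probe set changed by -0.45 (adjusted p = 0.550). Nfya, Nfyb and Nfyc, the subunits of NF-Y, had log2 changes of -0.16, -0.15 and -0.28, all lower without overlap and none past the threshold. Of all genes, 22.0% were lower without overlap. The second, dimmer probe set of Nfyc had overlapping groups and a log2 change of -0.09 (adjusted p = 0.934).

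The measured activating enzymes were Uba3, which serves the ubiquitin-like protein Nedd8, and Uba7. Uba7 serves the interferon-induced modifier Isg15 and had the largest change of the pathway lists. It was at 513 and 668 in Hemangioblast against 225 and 346 in hCD4. The groups did not overlap, and the difference missed the threshold (1.03, SE 0.25, 95% interval 0.46 to 1.59, adjusted p = 0.060). Ubqln1, Nfe2l1, Keap1, the NF-Y subunits and Uba7 were singled out after their values were seen.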

How the data were processed

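Expression was measured on 4 arrays with biotin-labelled RNA (20 ug, reverse transcribed without amplification, per the labels). The values deposited by the authors are intensities on a linear scale. How they computed, background-corrected and scaled them is not given in the sources used here. Deposited medians ran from 166 to 198. Of 12488 probe sets 66 controls were left out. Each array was scaled to one trimmed mean (2% trimmed at each end, factors 0.936 to 1.09), and log2 of the scaled intensity plus 16 was fitted by limma (version 3.58.1, R 4.3.3, moderated with an intensity trend, 2 residual and 6.18 prior degrees of freedom). Tests were two-sided, with Benjamini-Hochberg adjustment over 12422 probe sets and a threshold of 0.05. The number of arrays limits the precision, and an exact permutation test of 2 against 2 cannot go below 0.333. Symbols come from the platform's annotation (10833 probe sets with 1, 396 with several, 1193 with none). Of the former, 10817 were found in RefSeq's gene table. Shifts of gene groups are given as counts and medians with no test. The fit was tested on simulated data with no change or with changes larger than those of any proteasome gene. It does not show whether changes of their size could be found.

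Members and lists were chosen with earlier results of these data known. By rule, array values are given for the lowest and highest member of each role, the catalytic subunits, the activators and all members of roles with up to 4 genes. Other members with array values (Psma2, Psma5, Psmb4, Psmc5, Psmd7, Psmd11, Psmd14, Psmg2, Psmg3 and Psmg4) were named after their values were seen. Alternatives were other added constants and scalings, no intensity trend, no dim probe sets, the mean of a gene's probe sets, each array left out and the replicate number as a block. Figures were drawn with matplotlib 3.10.9.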

Additional observations from a re-analysis of the deposited data

How the results depend on the processing

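Under all 13 alternative fits 0 proteasome genes passed, and the smallest adjusted p among them was between 0.0718 and 0.477 (limma). The count over all probe sets, 556 in the reported fit, was 853 with dim probe sets left out, 220 without an intensity trend, 272 without scaling and 219 to 517 with 1 array left out. With the replicate block it was 710, and no proteasome gene passed. Same-numbered arrays did not deviate together (r = -0.0078 across probe sets). With 2 arrays a group this cannot exclude a pairing, and the reported fit used none. Median scaling gave medians of 0.0792 for assembly factors and -0.23 for the beta ring, quantile normalization -0.0562 for the beta ring and -0.0225 for the alpha ring, and the mean of a gene's probe sets 0.0609 for assembly factors and -0.0427 for activators (sign turned). With 1 array left out, medians ranged from -0.21 to 0.49 for activators, 0.0387 to 0.13 for assembly factors, -0.26 to -0.0869 for ATPases, -0.50 to 0.15 for other base subunits, -0.39 to 0.0502 for the alpha ring and -0.30 to -0.0806 for the beta ring. Without Hemangioblast replicate 2, 11 of 41 estimates changed sign, and 3 to 6 did so without another array. Among the 18 genes whose estimates were followed singly, signs changed with quantile normalization for Psma6 (0.0273), Psmb3 (0.0187), Psmc4 (-0.0652) and Psmd2 (-0.0416), with an added constant of 1 for Psmd2 (-0.27), and with the mean of its probe sets for Psme1 (-0.0427). With 1 array left out they did so for Psma6 (-0.18 to 0.0421), Psmb6 (-0.30 to 0.0187), Psmc4 (-0.27 to 0.53), Psmd1 (-0.33 to 0.15), Psmd2 (-0.70 to 0.91), Psmd8 (-0.0236 to 0.26), Psme3 (-0.21 to 0.69) and Psme4 (-0.45 to 0.27). With quantile normalization 6 of all 41 changed sign, and with the mean of a gene's probe sets 3. None of these estimates passed the threshold, and the cause was not tested. Values near the added 16 (Psmc4 and Psmd2) carry no direction.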
